A study of Mus musculus with 6 samples.

Results

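The genes described here are 9 that govern how T cells enter, hold in and leave lymphoid organs, and they were taken by symbol from a deposited table of 55840 genes. They are Ccr7, S1pr1, S1pr4, Klf2, Klf3, Cxcr4, Cxcr5, Cd69 and Cd44; each symbol matched 1 row, and all 9 passed the filter on low counts. The study sequenced RNA of Tregs, the regulatory T cells whose identity rests on the transcription factor Foxp3, from mouse spleen and lymph nodes. One group was wild type (WT, 3 libraries). The other carried the genotype labelled Exon2KO (3 libraries), written Foxp3∆2 in the series title, in which exon 2 of Foxp3 is missing. Both groups were labelled only as Tregs, with titles that call the libraries biological replicates; nothing says whether these came from separate animals, so p-values measure the spread between libraries, which may be technical. Strain, age, sex, the sort that isolated the cells and the way the allele was made are not given in the sources used here. Libraries are named by genotype and by the number in their column name (2, 6 or 20), which occurs once in each genotype.

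Lymphocytes enter a lymph node through its high endothelial venules, where rolling slows the cell and the chemokine receptor CCR7 triggers integrin arrest and guides it into the T cell zone. They leave by following sphingosine 1-phosphate (S1P), which is scarce in tissue and abundant in lymph and blood, through the receptor S1PR1. KLF2 is a zinc finger transcription factor of resting T cells that is known to drive S1pr1, and CD69, an early activation antigen, binds S1PR1 and takes it off the surface. CXCR4 and CXCR5 pull cells toward stroma and B cell follicles, and CD44, a hyaluronan receptor, is high on activated and memory T cells.

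S1pr1 and Klf2 were higher in Exon2KO than in WT Tregs, by 1.53-fold and 1.46-fold, with no overlap between the groups. Klf3, S1pr4 and Ccr7 were higher in Exon2KO within each same-number pair and passed the test only when the library number entered the model as a block, that is, when libraries were compared within their number. Cd44 was lower in every Exon2KO library, by -0.49 on the log2 scale, and did not pass the adjusted p threshold of 0.05 in either test. Cd69 and Cxcr4 differed far more between library numbers than between genotypes, and Cxcr5 was below all WT libraries in 2 of 3 Exon2KO libraries and above them in the other. With the block Cd69, too, passed the test, with a higher level in Exon2KO in each pair. In the test without a block, 2 of the 9 were called higher, against 0.757% of the 14919 genes tested, and 0 of 9 were called lower, against 1.58% (2.33% in either direction). The median log2 fold change of the 9 was 0.22, beside 0.0084 for all genes tested. The members were chosen with earlier results of these data known, so these comparisons describe the 9 and do not test them as a group.

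Total counts lay between 17998216 and 21003496 per library. In a principal component analysis the first component (33.2% of the variance) placed both libraries numbered 20 apart from the other 4. CD4 T cell and Treg markers were abundant, with a sum over 8 genes of 3587 to 4051 CPM (gene counts relative to the TMM-scaled library total) in WT and 3237 to 3664 CPM in Exon2KO. Within this list the genotypes did not overlap for 5 genes: Il2ra (587 to 677 CPM in WT and 379 to 487 CPM in Exon2KO), Ctla4 (131 to 178 and 79.3 to 89.6 CPM), Ikzf2 (625 to 772 and 379 to 500.2 CPM) and Tnfrsf18 (up to 168 and 74.2 to 117 CPM) were lower in each Exon2KO library, and Cd4 (631 to 723 and 745 to 818 CPM) was higher. The part of these in the results was not tested. Foxp3 itself differed by 0.19 on the log2 scale (edgeR adjusted p = 0.693), and since counts are per gene the loss of 1 exon could not be checked. Markers of B cells summed to 40.3 to 46.6 CPM over 8 genes in WT and to 33.3 to 36.3 CPM in Exon2KO libraries, with Ms4a1 under 3 CPM throughout. The 10 myeloid markers summed to 74.8 to 96.8 CPM in WT and 64.6 to 80.2 CPM in Exon2KO, mostly Cst3, and the 8 CD8 T and NK cell markers to 31.6 to 35.0 and 33.5 to 52.8 CPM. The 6 erythroid markers summed to 5.39 to 17.4 and 3.48 to 13.7 CPM. Of the 7 stromal and endothelial markers (164 to 190 and 188 to 225 CPM), nearly all reads were of Pecam1, and Pdpn and Col3a1 had 0 counts.

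Levels of different genes were compared as CPM per kilobase of the deposited gene length, over all 6 libraries. Klf2 led at 196 ± 41.7 CPM per kilobase (SD), which ranked 158 among 11733 tested protein-coding genes, and it was above Ccr7 (113 ± 22.1 CPM per kilobase) in 6 of 6 libraries. Ccr7 and S1pr1 (104 ± 25.9 CPM per kilobase) were close, with Ccr7 the higher in 4 of 6. S1pr4 followed at 79.2 ± 7.83 CPM per kilobase and Cxcr4 at 62.2 ± 16.4 CPM per kilobase, S1pr4 being the higher in 4 of 6. Well under these lay Cd69 (25.9 ± 7.55 CPM per kilobase), Klf3 (23.4 ± 3.01 CPM per kilobase) and Cd44 (17.8 ± 3.96 CPM per kilobase), with each of the last pair below the gene before it in 4 of 6 libraries. Cxcr5 was the least abundant at 13.4 ± 3.41 CPM per kilobase, below Cd44 in each library. Neighbours ordered the same way in only 4 of 6 libraries are not separated beyond their spread over both genotypes, although Klf3 was above Cd44 in 3 of 3 Exon2KO libraries and in 1 of 3 WT libraries.

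**Figure D1:**
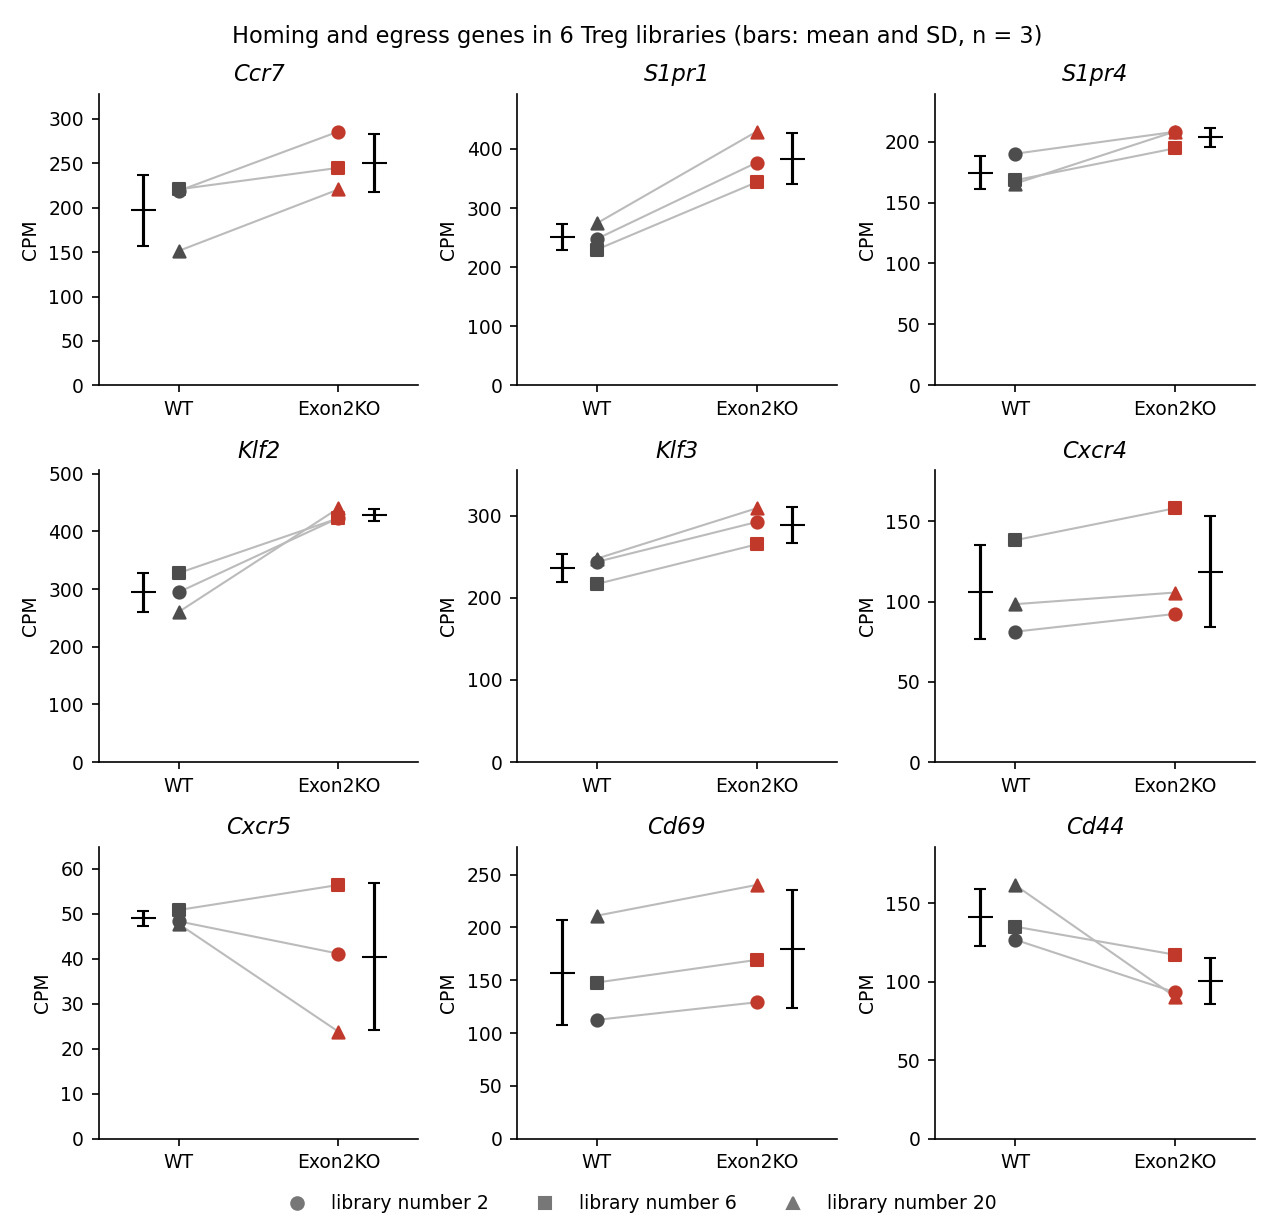
Level of each of the 9 genes in CPM (TMM-scaled counts, y axis from 0) in WT and Exon2KO Tregs. Each symbol is a library, its shape gives the library number, grey lines join libraries of the same number, and bars show the mean and SD of 3 libraries. S1pr1, S1pr4, Klf2 and Klf3 do not overlap between genotypes, Cd44 separates the other way, and the grey lines of Cd69 and Cxcr4 run almost parallel.

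The egress receptor S1pr1 (ENSMUSG00000045092, chromosome 3, 115710433 to 115715072, minus strand, GRCm38) had 4621, 4176 and 5850 counts in WT 2, 6 and 20. In Exon2KO 2, 6 and 20 it had 6791, 6709 and 7641 counts. On the CPM scale these were 248, 230 and 274 in WT and 377, 344 and 429 in Exon2KO, so the lowest Exon2KO library lay above the highest WT library. The mean rose from 251 ± 22.3 to 383 ± 43.2 CPM (SD, n = 3 each). Its log2 fold change was 0.61 (SE 0.10, 95% interval 0.38 to 0.84, edgeR adjusted p = 0.0159). Differences within the same-number pairs were nearly equal, at 0.60, 0.58 and 0.65 on the log2 scale for numbers 2, 6 and 20. Without WT 2, without WT 6 or without Exon2KO 2 the adjusted p was 0.0913, 0.0616 and 0.0827, while without both libraries numbered 20 it was 0.00996 (log2 fold change 0.59).

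S1pr4 encodes a second S1P receptor that is largely restricted to leukocytes (ENSMUSG00000044199, chromosome 10, 81497747 to 81500132, minus strand). It measured 190, 168 and 165 CPM in WT 2, 6 and 20 and 208, 194 and 208 CPM in the Exon2KO libraries of the same numbers. The groups did not overlap, although WT 2 and Exon2KO 6 were only a few CPM apart. A log2 fold change of 0.22 (SE 0.08, 95% interval 0.04 to 0.40) was not called without the block (edgeR adjusted p = 0.259). With the block it stayed 0.22 and was called (edgeR adjusted p = 0.0298). Without both libraries numbered 20 that call was lost (0.17, edgeR adjusted p = 0.205 with the block).

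Klf2 (ENSMUSG00000055148, chromosome 8, 72319033 to 72321656, plus strand) was counted 5494, 5959 and 5553 times in WT 2, 6 and 20. The Exon2KO libraries of those numbers held 7626, 8254 and 7834 counts. After scaling, WT stood at 295, 328 and 260 CPM and Exon2KO at 423, 423 and 440 CPM. The Exon2KO libraries were nearly level with each other and all above the WT range. Mean Klf2 rose from 294 ± 33.8 to 429 ± 9.92 CPM (SD, n = 3 each). This was a log2 fold change of 0.54 (SE 0.09, 95% interval 0.34 to 0.75, edgeR adjusted p = 0.0175). The pair differences were 0.52, 0.37 and 0.76 for numbers 2, 6 and 20. Without WT 2, Exon2KO 2 or Exon2KO 6 the adjusted p was 0.0903, 0.0960 and 0.0532, and without both libraries numbered 20 it was 0.0364 (log2 fold change 0.44). Because these are bulk samples, a change in the share of cells with the transcript and a change in transcript per cell cannot be told apart, for Klf2 as for the other genes. B cells also express Klf2 and Ccr7; the summed B cell markers were at most 36.3 CPM in Exon2KO and at least 40.3 CPM in WT, and their part in these results was not tested.

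Klf3, a zinc finger factor of the same family that mostly represses transcription (ENSMUSG00000029178, chromosome 5, 64803388 to 64832901, plus strand), had a smaller fold change than Klf2, a difference that was not tested. It measured 244, 217 and 248 CPM in WT 2, 6 and 20 and 292, 265 and 309 CPM in the matching Exon2KO libraries. Every Exon2KO library was above every WT library, and the order of the numbers (20, then 2, then 6) was the same in both genotypes. Klf3 differed by 0.29 (SE 0.09, 95% interval 0.09 to 0.49) on the log2 scale, which was not called without the block (edgeR adjusted p = 0.164) and was called with it (0.29, SE 0.06, edgeR adjusted p = 0.00438). With the block but without both libraries numbered 20, Klf3 kept its call (0.27, edgeR adjusted p = 0.0352). The lncRNA Gm20033 on the opposite strand and the transcript C230096K16Rik overlap Klf3 and held 1.31% and 1.54% as many counts.

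The promoters of Klf2, Klf3 and S1pr4, whose levels were higher in each Exon2KO library, and of Cd44, whose level was lower in each, are printed to show what their start regions hold. Of the 9 members, 5 have an entry in the RefSeq promoter table of build GRCm38.p6, which spans 250 bases before to 50 bases after a gene's RefSeq start. Capitals mark matches, on either strand, to CACCC (the core box of KLF and Sp factors, GGGTG on the other strand) and to CTAAATTTAG (a palindromic form of the site of MEF2 factors).
Klf2, chr8:72318812-72319111, plus strand: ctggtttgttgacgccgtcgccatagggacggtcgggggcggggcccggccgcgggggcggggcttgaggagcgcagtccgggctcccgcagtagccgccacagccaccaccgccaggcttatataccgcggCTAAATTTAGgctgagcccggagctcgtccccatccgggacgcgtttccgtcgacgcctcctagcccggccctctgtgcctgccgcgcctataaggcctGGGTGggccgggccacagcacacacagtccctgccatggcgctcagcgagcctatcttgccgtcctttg
Klf3, chr5:64803271-64803570, plus strand: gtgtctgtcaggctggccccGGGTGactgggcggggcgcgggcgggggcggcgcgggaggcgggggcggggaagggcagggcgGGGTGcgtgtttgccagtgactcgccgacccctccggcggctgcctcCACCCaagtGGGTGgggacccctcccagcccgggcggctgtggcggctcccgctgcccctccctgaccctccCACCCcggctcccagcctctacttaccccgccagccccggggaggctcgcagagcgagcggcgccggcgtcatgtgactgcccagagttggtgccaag
S1pr4, chr10:81500088-81500387, minus strand: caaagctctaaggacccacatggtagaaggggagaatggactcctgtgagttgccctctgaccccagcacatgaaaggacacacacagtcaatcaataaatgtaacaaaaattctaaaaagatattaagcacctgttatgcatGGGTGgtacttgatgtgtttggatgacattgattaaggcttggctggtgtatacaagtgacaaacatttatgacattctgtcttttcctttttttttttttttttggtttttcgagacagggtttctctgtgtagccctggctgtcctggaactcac
Cd44, chr2:102901616-102901915, minus strand: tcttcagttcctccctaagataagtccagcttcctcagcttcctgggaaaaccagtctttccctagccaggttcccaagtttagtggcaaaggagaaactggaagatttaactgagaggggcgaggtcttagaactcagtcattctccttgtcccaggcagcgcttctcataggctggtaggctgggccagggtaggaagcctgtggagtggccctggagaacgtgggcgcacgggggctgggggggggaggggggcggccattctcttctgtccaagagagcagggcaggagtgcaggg
Klf2 held 1 CACCC match, read on the minus strand, that begins 19 bases before the RefSeq start, and 1 CTAAATTTAG match that begins 118 bases before it. The RefSeq starts of Klf2 and Klf3 lie inside the gene spans given above, as do this CACCC match and some of those in Klf3. Klf3 held 5 CACCC matches, S1pr4 held 1 and Cd44 held 0, and the promoter of Cxcr4, not printed because its groups overlapped, held 1. CACCC occurs in 57.5% of the 32851 promoters of this length, so its presence sets none of these apart. CTAAATTTAG occurs in 13 of them (0.0396%), but these letters were chosen with the Klf2 promoter in view. The forkhead box GTAAACA, searched on both strands and found in 3.65% of all promoters, was in 0 of the 5. No match says only that these letters are not in this window. GC content was 69.3% for Klf2, 76.7% for Klf3, 41.0% for S1pr4 and 58.0% for Cd44, beside a median of 52.7% over all promoters.

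The lymph node entry receptor Ccr7 (ENSMUSG00000037944, chromosome 11, 99144196 to 99155077, minus strand) measured 219, 221 and 151 CPM in WT 2, 6 and 20. In Exon2KO 2, 6 and 20 it measured 286, 245 and 220 CPM. The groups overlapped, because Exon2KO 20 was level with WT 2 and WT 6, but each Exon2KO library was above its same-number WT library. Pair differences were 0.38, 0.15 and 0.54 on the log2 scale. Over all libraries Ccr7 differed by 0.35 (SE 0.16, 95% interval -0.02 to 0.72), which was not called without the block (edgeR adjusted p = 0.456). With the block it was 0.36 (SE 0.07, edgeR adjusted p = 0.0048). Without both libraries numbered 20 that call was lost (0.27, edgeR adjusted p = 0.0647 with the block). Leaving out single libraries moved the value without the block between 0.18 and 0.44.

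**Figure D2:**
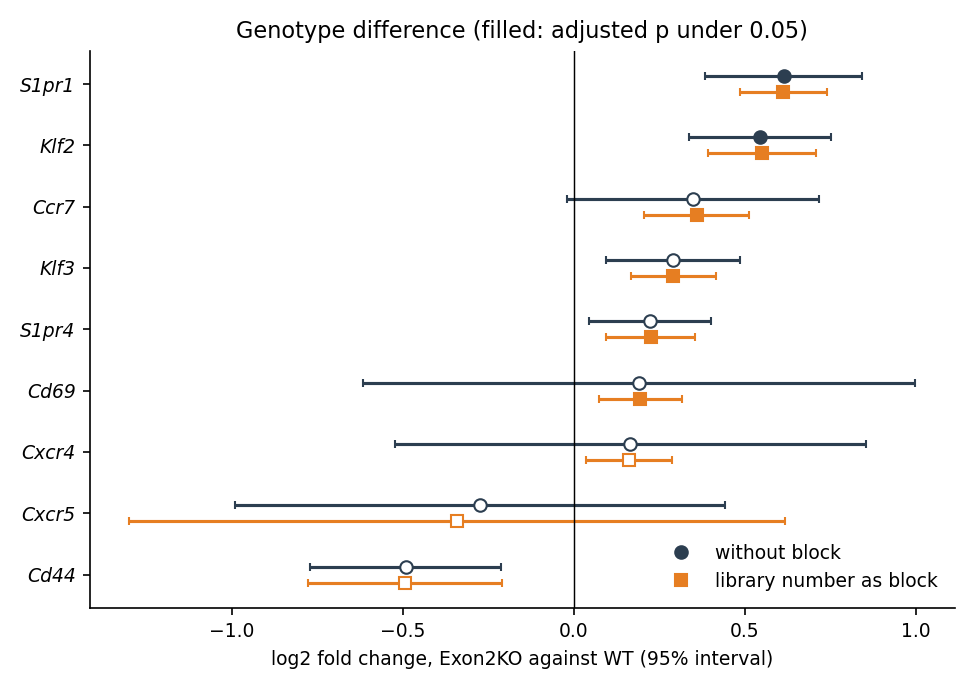
Log2 fold change of each gene, Exon2KO against WT (x axis), with its 95% interval from edgeR without a block (circles) and with the library number as a block (squares); filled symbols passed an adjusted p under 0.05. S1pr1 and Klf2 are filled in both fits, Ccr7, Klf3, S1pr4 and Cd69 only with the block, and the intervals of Cd69 and Cxcr4 narrow most.

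With the library number as a block, 6 of the 9 genes were called higher (S1pr1, Klf2, Klf3, Ccr7, S1pr4 and Cd69), against 3.93% of all genes tested, and 0 were called lower, against 5.79% (9.72% in either direction). Without both libraries numbered 20 the blocked fit called 3 higher (S1pr1, Klf2 and Klf3), against 2.58% of the genes it tested, and 1 lower (Cd44), against 3.45%. Counted without a model, 7 of the 9 were higher in Exon2KO in all 3 same-number pairs, as were 21.4% of all genes tested, and 1 (Cd44) was lower in all 3, as were 20.9%. Separation of the groups in CPM was seen upward for 4 of 9 (S1pr1, S1pr4, Klf2 and Klf3, 8.35% of all genes) and downward for 1 of 9 (Cd44, 9.32% of all genes). Here too the members had been chosen with earlier results of these data known.

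Cd44 (ENSMUSG00000005087, chromosome 2, 102811141 to 102901665, minus strand) measured 127, 135 and 162 CPM in WT 2, 6 and 20 and 93.3, 117 and 90.5 CPM in Exon2KO 2, 6 and 20. All Exon2KO libraries lay below all WT libraries, with Exon2KO 6 the closest to WT. Means were 141 ± 18.2 CPM in WT and 100.4 ± 14.7 CPM in Exon2KO (SD, n = 3 each). Cd44 thus differed by -0.49 on the log2 scale (SE 0.12, 95% interval -0.77 to -0.21). It was not called without the block (edgeR adjusted p = 0.0931) or with it (edgeR adjusted p = 0.0519). Without Exon2KO 6 it was called (-0.63, edgeR adjusted p = 0.0364). Without both libraries numbered 20 the value moved to -0.32 (edgeR adjusted p = 0.276), and with the block as well to -0.32 (edgeR adjusted p = 0.0235). The authors' deposited table gives Cd44 a log2 fold change of -0.49 with an adjusted p of 0.0121, S1pr1 one of 0.62 with 3.86e-06 and Klf2 one of 0.55 with 2.7e-05. For the other members the adjusted p in the authors' deposited table is 0.0795 (Klf3) or higher.

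Cd69, the activation antigen that holds cells in tissue by removing S1PR1 from the surface (ENSMUSG00000030156, chromosome 6, 129267325 to 129275436, minus strand), followed the library number. It measured 112, 148 and 211 CPM in WT 2, 6 and 20 and 129, 169 and 240 CPM in Exon2KO 2, 6 and 20. Both genotypes thus ran in the same order, with number 20 about 1.87 times number 2 in the mean of the genotypes, and the groups overlapped widely. Within pairs the Exon2KO library was higher by 0.20, 0.20 and 0.19 on the log2 scale. Its log2 fold change of 0.19 had an interval of -0.62 to 1.00 without the block (edgeR adjusted p = 0.909) and of 0.07 to 0.31 with it (edgeR adjusted p = 0.0439). This call was lost without both libraries numbered 20 (0.20, edgeR adjusted p = 0.121 with the block). Without the block, the sign of Cd69 turned when WT 2 (-0.0043) or Exon2KO 20 (-0.080) was left out.

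Immediate early genes, a list of 11 that includes Fos, Junb and Nr4a1, respond within minutes to T cell receptor signals and to tissue handling. Their summed level was highest in the libraries numbered 20, as was Cd69. It was 6276 CPM in WT 20 and 7028 CPM in Exon2KO 20, and between 3311 and 3772 CPM in the other 4 libraries. Junb held the most counts of the list (1490 to 2243 CPM in WT and 1432 to 2632 CPM in Exon2KO). Egr3 was nearly level (70.1 to 78.4 and 67.2 to 78.2 CPM), and Egr2 had 0 counts in all 6. The list did not separate numbers 2 and 6 as Cd69 did: it was 3537 and 3772 CPM in WT 2 and 6, and 3502 and 3311 CPM in Exon2KO 2 and 6. By genotype the list overlapped (4528 ± 1518 CPM in WT and 4613 ± 2093 CPM in Exon2KO, SD, n = 3 each). Its part in the values of Cd69 was not tested.

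Cxcr4, the receptor of CXCL12 that draws cells to bone marrow and stroma (ENSMUSG00000045382, chromosome 1, 128588199 to 128592293, minus strand), also followed the number, in another order. It measured 81.3, 138 and 98.4 CPM in WT 2, 6 and 20 and 92.3, 158 and 106 CPM in Exon2KO 2, 6 and 20. Number 6 was the highest and number 2 the lowest in both genotypes, 1.71 times apart in the mean of the genotypes. Between genotypes Cxcr4 differed by 0.16 on the log2 scale (SE 0.28, 95% interval -0.52 to 0.85, edgeR adjusted p = 0.909). With the block the interval was 0.03 to 0.29 and the gene was not called (edgeR adjusted p = 0.113). It turned to -0.11 without Exon2KO 6.

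**Figure D3:**
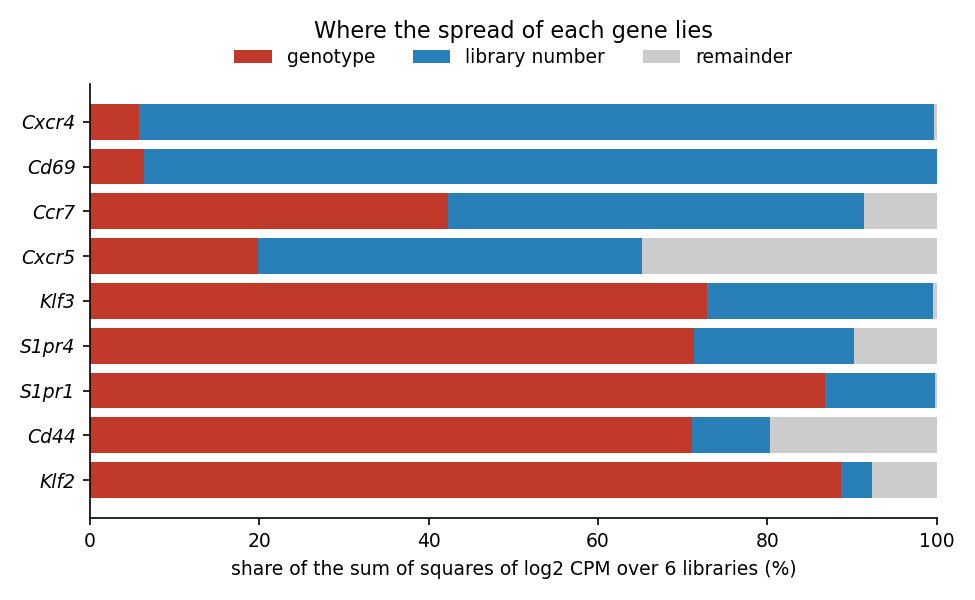
Share of the sum of squares of log2 CPM over the 6 libraries (x axis, percent) that lies between genotypes (red), between library numbers (blue) and in the remainder (grey), for each of the 9 genes. The number takes 93.6% for Cd69 and 93.9% for Cxcr4, and the genotype 88.7% for Klf2 and 86.9% for S1pr1.

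The spread of each gene over the 6 libraries was divided into a share between genotypes, a share between numbers and a remainder. The genotype took 88.7% for Klf2, 86.9% for S1pr1, 72.8% for Klf3, 71.4% for S1pr4 and 71.1% for Cd44, beside a median of 16.5% over all genes tested. The number took 93.9% for Cxcr4, 93.6% for Cd69 and 49.1% for Ccr7, beside a median of 49.1% over all genes tested. For Ccr7 the genotype share was 42.3%, and Ccr7 was lowest at number 20 in both genotypes. A test of the number term in the blocked fit, chosen after seeing the data, called Cd69 (edgeR adjusted p = 2.09e-06), Cxcr4 (9.89e-06), Ccr7 (0.00919) and S1pr1 (0.0448), which is 4 of 9 against 10.4% of all genes tested. What the number stands for is not stated in the labels. S1pr1 was highest at number 20 and lowest at number 6 in both genotypes, while its difference between genotypes was much alike at each number.

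Cxcr5, the receptor for the follicle chemokine CXCL13 that marks follicular helper and follicular regulatory T cells (ENSMUSG00000047880, chromosome 9, 44511787 to 44561877, minus strand), showed no call. It measured 48.4, 50.9 and 47.8 CPM in WT 2, 6 and 20 and 41.2, 56.4 and 23.8 CPM in Exon2KO 2, 6 and 20. The WT libraries were level, whereas the Exon2KO libraries spread 2.37-fold, with number 6 above all WT libraries, number 2 below them and number 20 furthest below. Cxcr5 differed by -0.27 on the log2 scale (SE 0.29, 95% interval -0.99 to 0.44, edgeR adjusted p = 0.839). Leaving out Exon2KO 20 moved it to -0.0092 and leaving out Exon2KO 6 to -0.60. A list of 7 other follicular T cell genes (Bcl6, Pdcd1, Ascl2, Il21, Sh2d1a, Tox2 and Pou2af1) spread in the same order: 194, 276 and 156 CPM in Exon2KO 2, 6 and 20, and 198 to 228 CPM in WT. Single genes of it went different ways: Il21 (0.43 to 0.61 CPM in WT and 1.40 to 28.5 CPM in Exon2KO) and Pou2af1 (5.15 to 6.89 and 8.26 to 18.4 CPM) were higher in each Exon2KO library, and Sh2d1a (58.3 to 71.8 and 46.2 to 53.5 CPM) was lower. Its part in the Cxcr5 values was not tested. Bcl9l on the opposite strand overlaps Cxcr5 and had 27856 counts over all libraries against 5115 for Cxcr5. The overlap is one of gene spans. Exons were not compared and no strand setting is stated, so whether reads of the pair were mixed is not known. Bcl9l did not overlap between genotypes and differed by 0.24 without the block (edgeR adjusted p = 0.361) and by 0.25 with it, where it was called (edgeR adjusted p = 0.0257).

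The other genes of these pathways were examined as a list of 77 genes, of which 69 were tested. In edgeR without the block, 1 of these was called higher and 4 lower (background 0.757% and 1.58%), and the median log2 fold change was 0.04. With the block 11 were called higher and 10 lower (background 3.93% and 5.79%). This list was also chosen with earlier results of these data known. S1pr3 had 6 and Sphk1 7 counts over all libraries, which was too few to test.

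**Figure D4:**
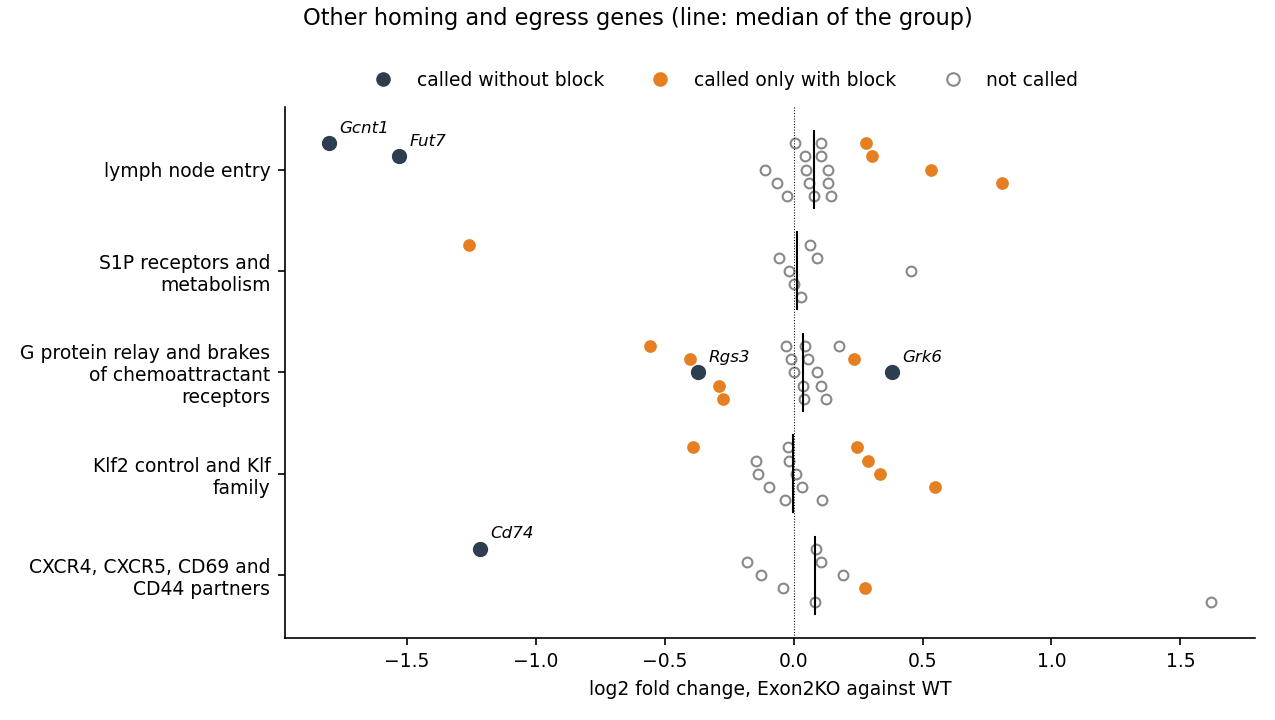
Log2 fold change, Exon2KO against WT (x axis), of the 69 tested pathway genes in 5 groups by role; each point is a gene, vertical lines are group medians, dark points were called by edgeR without the block and orange points by edgeR with the block and not without it. The medians lie near 0, and Gcnt1, Fut7 and Cd74 stand furthest to the left among the genes called without the block.

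In the lymph node entry group (19 tested, median 0.08), 2 genes were called lower and 0 higher. Both encode enzymes that build selectin ligands. They stand in this group by the list chosen here, and a part in lymph node entry of these Tregs was not tested. Gcnt1, which branches core O-glycans, measured 21.2, 30.6 and 40.8 CPM in WT 2, 6 and 20 and 6.66, 11.0 and 8.82 CPM in Exon2KO 2, 6 and 20. Its log2 fold change was -1.80 (SE 0.27, edgeR adjusted p = 0.0172), and the adjusted p was 0.0790, 0.0759 and 0.0833 without WT 6, Exon2KO 2 or Exon2KO 20. Fut7, the fucosyltransferase that completes the sialyl Lewis x epitope, measured 6.92, 7.53 and 13.6 CPM in WT and 2.94, 2.97 and 3.82 CPM in Exon2KO. It changed by -1.53 (SE 0.29, edgeR adjusted p = 0.0292). Without single libraries the adjusted p of Fut7 ran from 0.0337 to 0.142, and only the fit without Exon2KO 20 kept the call. In limma-voom with all 6 libraries it was not called either (-1.49, adjusted p = 0.0692). No library of either genotype crossed into the other group for these genes.

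Itga4, the alpha 4 integrin chain, was called by edgeR with the block (0.55, edgeR adjusted p = 0.00441) and not without it (0.53, edgeR adjusted p = 0.208), although its groups did not overlap: 391 to 628 CPM in WT and 682 to 835 CPM in Exon2KO. The kinase gene Stk4 (0.31, edgeR adjusted p = 0.00524) and the sialyltransferase gene St3gal6 (0.88, edgeR adjusted p = 0.041) were likewise called by edgeR with the block and not without it. DESeq2 without the block, on the same filtered genes, called Itga4 (adjusted p = 0.0171) and Stk4 (adjusted p = 0.0293). Tomm34 on the opposite strand overlaps Stk4 and held 24.3% as many counts, and Dcbld2 overlaps St3gal6 and held 19.8%. In the fit without both libraries numbered 20, the block called Itga4 (0.65, edgeR adjusted p = 0.00205) and Stk4 (0.36, 0.0111) and not St3gal6 (0.59, 0.222). Without the block, leaving out single libraries moved St3gal6 from 0.81 to between 0.45 (without WT 20) and 1.32 (without WT 6).

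Among the other S1P genes (8 tested, median 0.01) no gene was called by edgeR without the block. Plpp1, which encodes a lipid phosphatase, was called lower with it (-1.28, edgeR adjusted p = 0.0206) at a level of 2.38 ± 0.20 CPM in WT and 0.99 ± 0.22 CPM in Exon2KO (SD, n = 3 each). Without both libraries numbered 20 that call was lost (-1.16, edgeR adjusted p = 0.109 with the block). Mtrex on the opposite strand overlaps the gene span of Plpp1 and had 8952 counts against 193. Exons were not compared, so whether reads of this pair were mixed is not known.

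Among G protein relay genes and brakes of chemoattractant receptors (18 tested, median 0.04), Grk6 was called higher and Rgs3 lower. Grk6, a kinase that desensitizes such receptors, measured 446, 422 and 429 CPM in WT 2, 6 and 20 and 578, 520 and 593 CPM in Exon2KO 2, 6 and 20 (0.38, SE 0.08, edgeR adjusted p = 0.0405). Rgs3, a GTPase activator that shortens G protein signals, measured 141, 149 and 148 CPM in WT and 105, 117 and 116 CPM in Exon2KO (-0.37, SE 0.07, edgeR adjusted p = 0.0347). Both genes separated the genotypes without overlap. Leaving out any 1 of the 6 libraries raised the adjusted p of Grk6 to between 0.0542 and 0.215 and that of Rgs3 to between 0.0613 and 0.195. With the block, Arrb2 was also called higher (0.24), and Gnaq (-0.58), Rgs1 (-0.27), Rgs2 (-0.31) and Rgs16 (-0.44) lower, with edgeR adjusted p from 0.00203 to 0.0206. Gnaq was also called without the block by DESeq2 on the same filtered genes (adjusted p = 0.0277) and by edgeR without a count filter (adjusted p = 0.0091). Arrb2 was no longer called with the block when both libraries numbered 20 were left out (0.19, edgeR adjusted p = 0.159), and the other 4 still were. Without the block, leaving out single libraries moved Rgs16 from -0.40 to between -0.24 (without WT 20 or Exon2KO 2) and -0.73 (without Exon2KO 20), and Rgs1 from -0.28 to -0.16 without WT 6. Arrb2, also without the block, moved from 0.23 to 0.14 when WT 20 was left out. Rgs2 also differed among library numbers (edgeR adjusted p = 5.32e-08), with 98.5 ± 52.3 CPM in WT and 80.7 ± 46.5 CPM in Exon2KO (SD, n = 3 each). Without the block its sign turned when WT 20 was left out (0.23).

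In the group of Klf2 regulators and other Klf genes (14 tested, median -0.0040), no gene was called by edgeR without the block. DESeq2 on the same filtered genes, also without the block, called Klf13 (adjusted p = 0.0218). Klf7 was called without the block once the count filter was dropped, by edgeR (adjusted p = 0.0302) and by DESeq2 (adjusted p = 0.0455). With the block Klf7 (0.56), Mef2a (0.33), Klf13 (0.29) and Smurf1 (0.25) were called higher and Klf4 lower (-0.49), with edgeR adjusted p from 0.000721 to 0.0157. Leaving out both libraries numbered 20 kept Klf7 and Klf4 called with the block and lost Mef2a, Klf13 and Smurf1 (edgeR adjusted p = 0.0647, 0.0582 and 0.0888). Foxo1, whose product is known to activate Klf2, differed by 0.03 (edgeR adjusted p = 0.96), and Mapk7 and Map2k5, which encode the ERK5 module upstream of MEF2, by -0.09 (adjusted p = 0.785) and -0.15 (adjusted p = 0.642); these 3 were named after their values were seen. Klf4 was 43.8 ± 31.2 CPM in WT and 33.6 ± 29.8 CPM in Exon2KO (SD, n = 3 each), and without the block its value turned to 0.37 when WT 20 was left out. Mef2a moved from 0.34 to 0.21 without the block when Exon2KO 20 was left out. Lysmd4 on the opposite strand overlaps Mef2a and held 12.6% as many counts.

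In the group of partners of CXCR4, CXCR5, CD69 and CD44 (10 tested, median 0.08), in edgeR Cd74 was called lower without the block and Ezr higher with it but not without it (0.28, edgeR adjusted p = 0.00867). Cd74, the MHC class II invariant chain and a receptor for the cytokine MIF together with CD44 and CXCR4, measured 96.0, 104.5 and 104.4 CPM in WT 2, 6 and 20. In Exon2KO 2, 6 and 20 it measured 42.1, 44.0 and 44.9 CPM. Cd74 had a log2 fold change of -1.22 with a SE of 0.08 (edgeR adjusted p = 0.000241), and the adjusted p stayed at 0.005 or lower when single libraries were left out. Cd74 is abundant in B and myeloid cells, and B cell markers were also lower in each Exon2KO library (35.3 ± 1.67 CPM against 42.8 ± 3.30 CPM in WT, SD, n = 3 each). Myeloid markers overlapped between genotypes and were lower in Exon2KO in all 3 same-number pairs (74.0 ± 8.22 CPM against 85.2 ± 11.1 CPM in WT, SD, n = 3 each). The part of either list in the Cd74 result was not tested. Ezr encodes ezrin, which ties CD44 to the actin cortex.

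The protein-coding genes whose profile over the 6 libraries came closest to S1pr1 were Arl4c, Slc26a10 and Lrp5. Likeness was the root mean squared difference of centred log2 CPM among 9365 candidates with at least 5 CPM, and it was 0.0425, 0.0491 and 0.0653. Their own log2 fold changes were 0.58, 0.57 and 0.65. Closest to Klf2 were Xylt2 (0.0656), Znrf1 (0.0690) and Hsdl1 (0.0722), with log2 fold changes of 0.65, 0.52 and 0.44. With 6 libraries and so many candidates, such closeness describes these values only.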

How the data were processed

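The labels' protocols describe column purification of RNA and a library kit made for Illumina sequencers. The submitters' processing notes name HISAT2 2.0.5, StringTie 1.3.3b, featureCounts 1.5.0-p3, DESeq2 1.16.1 and the build mm10, without roles; annotation and strand setting are not given in the sources used here. Per the file headers, the authors deposited whole-number counts per gene. The same table holds the authors' comparison: group means (a scaled count signal, deposited and not quoted), a log2 fold change, and a raw and an adjusted p-value for each gene. A further 6 per-library columns (FPKM) were not used, and levels per kilobase were computed from the counts and the deposited gene length. Of 55840 identifiers, 55394 occur in GENCODE M21 (GRCm38), where 55218 have the same start and end, among them all 9 members.

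Counts were tested with edgeR 4.0.16 (R 4.3.3): filterByExpr (14919 genes), TMM, robust quasi-likelihood fit, two-sided, Benjamini-Hochberg over all tested genes, called at an adjusted p under 0.05. CPM are on TMM-scaled totals. A SE is the log2 fold change over the square root of F, and its 95% interval uses the moderated degrees of freedom. For the profile comparison and the shares of spread, log2 CPM had a prior count of 2. The smallest level taken as measurable, 3 counts, was 0.143 to 0.167 CPM and covers counting error only. Columns show genotype but not the titled replicate, so the block is the column number. Same-number libraries deviated together from their group means, with correlations across genes (which are not independent) of 0.271, 0.369 and 0.494 for numbers 2, 6 and 20. This pairing comes from the column names alone. Chi-square per degree of freedom between same-genotype libraries was 8.12 to 23.6, so none was taken as a duplicate.

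Alternatives were other filters, RLE and upper-quartile scaling, DESeq2 1.42.0, limma-voom (limma 3.58.1), the replicate block, leaving out both libraries numbered 20, and leaving out each library. Members, gene lists and tests were chosen with earlier results of these data known. All 9 members were named, as were the pathway genes called with or without the block and, for S1pr1 and Klf2, the 3 genes of closest profile. A pathway gene and a marker gene are counted in their lists but not reported here by name. Promoter sequences are RefSeq's (GRCm38.p6). Scripts were tested on simulated data.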

Additional observations from a re-analysis of the deposited data

How the results depend on the processing

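The 348 genes called without the block (113 higher, 235 lower) became 617 without a count filter, 639 with DESeq2 without that filter, 660 with DESeq2 on the filtered genes (added after seeing the data), 1450 with the replicate block and 900 with the block but without both libraries numbered 20. Leaving out single libraries gave 86 (without Exon2KO 2) to 314 (without Exon2KO 20). Higher calls made up 32.5% of all calls without the block, 40.4% with it and 42.8% with it but without both libraries numbered 20. The 2 members called higher became 6 with the block and 0 to 2 without single libraries, and the 0 called lower became 1 (Cd44) without a count filter, with DESeq2 on either gene set, and with the block but without both libraries numbered 20; it was 0 or 1 without single libraries. In the pathway list the 1 gene called higher became 2 without a filter, 5 with DESeq2 without a filter and 4 with it, 11 with the block, 6 with the block but without both libraries numbered 20, and 0 with upper-quartile scaling, without both libraries numbered 20 and without any single library. The 4 called lower became 10 with the block, 9 with the block but without both libraries numbered 20, 3 with limma-voom, and 1 to 3 without single libraries. The block lowered edgeR's common coefficient of variation from 17.3% to 8.56%, and fits that left out a library had fewer samples; other causes were not tested. No member changed sign in any of the 16 alternatives except Cxcr4 (-0.11 without Exon2KO 6, up to 0.40 without WT 6) and Cd69 (-0.0043 without WT 2 and -0.080 without Exon2KO 20, up to 0.46 without WT 20). Of the named pathway genes called by edgeR with or without the block, Rgs2 and Klf4 did: without single libraries they ran from -0.88 to 0.23 and from -1.43 to 0.37, positive only without WT 20. S1pr1 ran from 0.52 to 0.68 and Klf2 from 0.44 to 0.63, each called in 13 of 16 alternatives.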
